A study of Mus musculus with 16 samples.

Results

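Co-inhibitory receptors are surface proteins that dampen T cell activation, and 7 of their genes (Ctla4, Pdcd1, Lag3, Tigit, Havcr2, Cd200 and Btla) were followed here through 16 RNA sequencing libraries of mouse CD4+ T cells. They were chosen by symbol, which matched 8 of the 53090 rows of each deposited table, since Ctla4 has 2 rows. The libraries came from splenic naïve CD4+ T cells (Tn, CD44low cells taken by immunomagnetic selection) and from CD4+ T cells after 2 days (48 h) in Treg conditions (Treg), that is, with antibodies to CD3 and CD28, recombinant human TGF-beta and recombinant mouse IL-2. Each state was sequenced in wild-type C57BL/6 mice (WT) and in Aim2-/- mice on the C57BL/6 background, which lack the DNA sensor AIM2 in all cells rather than in T cells alone, so that the 4 groups WT Tn, Aim2-/- Tn, WT Treg and Aim2-/- Treg held 4 libraries each. The mice were sex- and age-matched and cohoused, their ages are not given in the sources used here, and nothing there says that each library came from its own mouse or culture, so the p-values below measure the spread between these libraries, which may be technical.

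CTLA-4, encoded by Ctla4, competes with the activating receptor CD28 for CD80 and CD86 on antigen-presenting cells, and is kept at a high level by FOXP3-positive regulatory T (Treg) cells. PD-1 (Pdcd1), LAG-3 (Lag3), TIGIT (Tigit), TIM-3 (Havcr2) and BTLA (Btla) bind other ligands, namely PD-L1 and PD-L2, MHC class II and FGL1, CD155 (Pvr), galectin-9 and other molecules, and HVEM (Tnfrsf14). CD200, encoded by Cd200, is itself a ligand, and its receptor (Cd200r1) sits mainly on myeloid cells. Several of these genes are known to be switched on by T cell receptor signalling through NFAT, whereas BTLA is present on resting lymphocytes.

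The files gave 22516424 to 34533316 expected counts per library, so that 3 counts, the smallest signal taken as measurable, stood for 0.0869 to 0.133 CPM (counts scaled to a common library total). This floor reflects counting error alone. All levels below are CPM after TMM scaling over the 16 libraries unless a length is named. Aim2 itself was at 32 to 37.8 CPM in WT Tn and at 6.44 to 9.21 in Aim2-/- Tn, and at 36.1 to 43.7 in WT Treg and 7.29 to 11 in Aim2-/- Treg, so all the libraries stood on the side their genotype label gives. Its level in Aim2-/- libraries was not 0, and what remains of the gene in this allele is not given in the sources used here. Foxp3, the defining Treg gene, was at 1.97 to 3.98 CPM in all Tn libraries and at 283 to 574 in all Treg libraries. Of 12 Treg marker genes, edgeR called 12 higher in WT Treg than in WT Tn, where it called 37.7% of all genes higher. Markers of other cells summed to at most 49.9 CPM for 14 myeloid and dendritic genes and 7.82 CPM for 7 erythroid genes. The sum of 10 CD8 T and NK cell genes reached 103 CPM, with Prf1 at up to 40.9. That of 12 B cell genes reached 564 CPM, of which Ighm alone gave up to 558. Ms4a1 and S100a8 were at 0 throughout.

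On GRCm38, with the positions of GENCODE M21, Ctla4 lies at chr1:60887000-60915832 on the + strand, next to Icos (a gap of 62.1 kb) and Cd28 (114 kb). Pdcd1 lies on the same chromosome, at chr1:94038305-94052553 on the - strand. Aim2 is also on chromosome 1, at a gap of 112 Mb from Ctla4 and 79.3 Mb from Pdcd1. Tigit (chr16:43648867-43664146, -), Btla (chr16:45224315-45257670, +) and Cd200 (chr16:45382135-45409053, -) share chromosome 16, where 124 kb part Btla from Cd200. Lag3 lies at chr6:124904361-124911705 on the - strand, 16.1 kb from Cd4, which encodes the other T cell receptor for MHC class II. Havcr2 lies at chr11:46454935-46481255 on the + strand.

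RefSeq (GRCm38.p6) gave a start site for 6 of the 7 genes, Lag3 being named only. The 250 bases before the start are printed for Ctla4 and Tigit, because they varied together between libraries, and for Pdcd1, because it differed most between Tn and Treg. Each runs 5′ to 3′ on the strand of its gene, and capitals mark the NFAT core GGAAA or its reverse complement TTTCC and, in Pdcd1, the SMAD sequence CAGACA. The windows are chr1:60908775-60909024 for Ctla4, chr16:43664185-43664434 for Tigit and chr1:94052554-94052803 for Pdcd1. The Ctla4 window lies inside the GENCODE M21 extent given above, since the RefSeq start is downstream of the outermost GENCODE start.
Ctla4: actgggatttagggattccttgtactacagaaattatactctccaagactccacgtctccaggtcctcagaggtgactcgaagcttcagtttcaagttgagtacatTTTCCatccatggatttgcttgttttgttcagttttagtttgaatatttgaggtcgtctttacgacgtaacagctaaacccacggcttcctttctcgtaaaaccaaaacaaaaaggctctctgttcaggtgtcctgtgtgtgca
Tigit: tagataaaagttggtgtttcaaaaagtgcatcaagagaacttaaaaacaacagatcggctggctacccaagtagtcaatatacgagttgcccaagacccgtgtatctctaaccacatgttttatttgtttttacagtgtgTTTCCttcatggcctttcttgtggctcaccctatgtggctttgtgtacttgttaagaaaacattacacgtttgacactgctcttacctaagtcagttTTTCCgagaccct
Pdcd1: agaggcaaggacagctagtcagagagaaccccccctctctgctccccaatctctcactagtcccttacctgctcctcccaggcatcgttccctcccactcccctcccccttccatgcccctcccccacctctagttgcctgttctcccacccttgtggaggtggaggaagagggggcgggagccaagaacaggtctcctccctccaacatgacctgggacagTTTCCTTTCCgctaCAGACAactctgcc
The Ctla4 window holds 1 match to the NFAT core, which begins 144 bases before the start. Tigit holds 2, at 110 and 13 bases, and Pdcd1 holds 2, at 28 and 23 bases, with the SMAD match at 14 bases. Searched on both strands, the NFAT core occurs in 55.6% of 32851 promoter windows of this length, so its presence in 3 of 6 members is near that background. CAGACA occurs in 17.1% of windows and in 2 of the 6 (Pdcd1 and Havcr2), the AP-1 sequence TGANTCA in 6.75% and in 1 of the 6 (Havcr2), and the forkhead sequence TGTTTAC in 3.17% and in none of the 6. A match is a description of letters, not a measured site. No printed match overlaps another.

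Levels can be set beside each other between genes only per length, as CPM per kilobase of exon (RPKM). In WT Tn the order of the mean RPKM was Btla (26.6 ± 3.99, SD, n = 4), Ctla4 (20.3 ± 16), Tigit (8.07 ± 8.65), Cd200 (2.41 ± 1.04), Pdcd1 (1.19 ± 0.365), Lag3 (0.66 ± 0.254) and Havcr2 (0.0398 ± 0.0358). The ranges of neighbours in this order overlapped at every step but the last, from Lag3 to Havcr2. In Aim2-/- Tn, Ctla4 (30.5 ± 3.06) and Btla (28.5 ± 4.08) led with overlapping ranges, Tigit (6.7 ± 3.8) stood apart from both neighbours, and Cd200 (2.2), Lag3 (1.75) and Pdcd1 (1.24) overlapped in turn. Resting cells of both genotypes thus held mostly Btla and Ctla4 transcripts among these genes.

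The order was different after Treg culture. Pdcd1 had the highest RPKM in WT Treg (56.9 ± 8.66) and in Aim2-/- Treg (56.1 ± 8.87), and Ctla4 came next (31.6 ± 4.77 and 29.9 ± 4.83), with no overlap between the pair in either genotype. Cd200 (18 and 19.5), Btla (14.7 and 14.3), Lag3 (10.6 and 15.2) and Tigit (9.41 and 10.3) followed. Among these 4 in WT Treg each gene's range overlapped that of its neighbour, and in Aim2-/- Treg, where Lag3 stood before Btla, Btla did not overlap Tigit. Havcr2 was last in every group, at a mean of 0.0398 to 0.0929 RPKM. Of the 28 means of a gene in a group, 23 were at least 1 RPKM. Taking the longest transcript in place of all exons raised Ctla4 to 36.7 RPKM in Aim2-/- Tn, 38.1 in WT Treg and 36.1 in Aim2-/- Treg, and Cd200 to 3.12, 25.4 and 27.6 in the same groups.

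**Figure D1:**
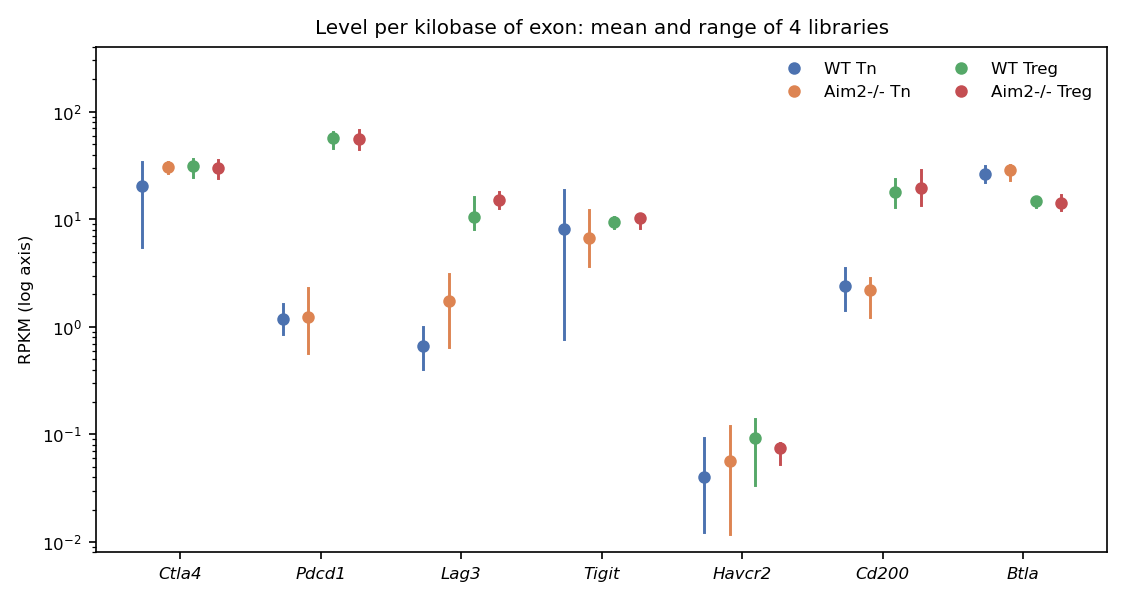
Mean RPKM (log axis) of each gene in WT Tn, Aim2-/- Tn, WT Treg and Aim2-/- Treg, with lines from the lowest to the highest of 4 libraries. Pdcd1 leads in both Treg groups (means of 56.9 and 56.1), Havcr2 is lowest everywhere, and the long lines of Ctla4 and Tigit belong to WT Tn.

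The libraries of WT Tn did not agree on Ctla4. Its level was 79.4 and 79.7 CPM in WT Tn replicates 1 and 2 and 12.7 and 17.4 CPM in replicates 3 and 4, or 304 to 2303 reads in all. In Aim2-/- Tn it was 74.2, 79.1, 62.9 and 67.7 CPM in replicates 1 to 4. WT Tn replicates 1 and 2 thus stood just above the Aim2-/- Tn range, and replicates 3 and 4 far below all other libraries of the study. Within WT Tn the SD was 78.8% of the mean, against 10.1% in Aim2-/- Tn. These are whole-population libraries, in which fewer cells that hold a transcript and less of it per cell cannot be told apart.

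Tigit was split in the same libraries. WT Tn replicates 1 and 2 were at 10.8 and 17.1 CPM and replicates 3 and 4 at 1.09 and 0.708 CPM, the latter from 26 and 21 reads. Aim2-/- Tn libraries were at 11.2, 3.4, 5.56 and 4.44 CPM, all of them between the high and the low pair of WT Tn or, for replicate 1, inside the high pair. On the log2 scale, replicates 1 and 2 of WT Tn exceeded replicates 3 and 4 by 2.41 for Ctla4 and by 3.84 for Tigit. Over the 14669 genes tested in all groups, 0.811% and 0.13% of genes differed at least as much between these pairs of libraries. By the same measure Cd200 ran the other way (5.27, 4.81, 11.7 and 10.1 CPM in replicates 1 to 4, a difference of -1.10, with 6.92% of genes at least as large). Btla (0.31), Lag3 (0.05) and Pdcd1 (-0.72) differed less.

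The replicate numbers come from the deposited titles, and no label makes replicates 1 and 2, or 3 and 4, a batch. These pairs were taken from the split seen in WT Tn, and no other pairing was counted, so the counts below favour WT Tn. There, 217 genes (1.48%) differed by more than 2 on the log2 scale between the pairs, 192 of them higher in replicates 1 and 2. The same pairs gave 36 genes (0.245%) in Aim2-/- Tn, 40 (0.273%) in WT Treg and 103 (0.702%) in Aim2-/- Treg. Whether other pairs of libraries differ more in those groups was not tested. For Ctla4 the same difference was 0.23 in Aim2-/- Tn, 0.31 in WT Treg and 0.35 in Aim2-/- Treg. For Tigit it was 0.31, 0.02 and -0.18.

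Other genes of the naïve cells followed Ctla4 in these libraries. Cd28, the activating partner of CTLA-4 and its neighbour on chromosome 1, was at 439, 404, 160 and 172 CPM in WT Tn replicates 1 to 4, and at 303, 261, 169 and 236 CPM in Aim2-/- Tn. Icos, the other activating receptor of that locus, was at 123, 123, 34.7 and 37.3 CPM in WT Tn and at 99.6, 79.1, 57.8 and 73.5 CPM in Aim2-/- Tn. Like Ctla4, both were lowest in WT Tn replicates 3 and 4, except that Cd28 in Aim2-/- Tn replicate 3 lay between these. Irf4 and Nr4a3, transcription factors induced by T cell receptor signalling, were at 48.7, 72.3, 12.7 and 18.4 CPM and at 242, 378, 16.6 and 19 CPM in WT Tn. In Aim2-/- Tn they were at 66.2, 30.8, 27.2 and 35 CPM and at 200, 76, 37.4 and 88.8 CPM. Fos, an immediate early gene, did not follow them (300, 376, 367 and 480 CPM in WT Tn), nor did Foxp3 (2, 1.97, 2.93 and 3.98 CPM). Other transcription factors went both ways in WT Tn. Nr4a2 followed (40.8, 60.3, 4.15 and 6.4 CPM). Egr2 (8.96, 11.2, 9.17 and 12 CPM), Egr3 (7.79, 10.5, 14.9 and 13.6) and Jun (405, 499, 505 and 871) did not. These genes were named after their values were seen.

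The marker lists give the makeup of the same libraries. The summed level of 8 naïve T cell markers was 6870, 7190, 5250 and 5180 CPM in WT Tn replicates 1 to 4 and 5650 to 6980 in Aim2-/- Tn. Within that list, Ccr7 fell with Ctla4 (1380, 1560, 408 and 414 CPM). The 12 Treg markers summed to 171, 170, 184 and 176 CPM in WT Tn, and the 13 markers of memory and follicular helper cells to 305, 297, 310 and 304 CPM, so the 2 sums were alike in all 4 libraries. Single genes on these lists were not: Maf (11.5, 11.7, 5.99 and 5.36 CPM), Tbc1d4 (44.3, 51.7, 25.8 and 23.8) and Tnfrsf4 (11.2, 12.6, 5.28 and 7.01) were lower in replicates 3 and 4, and Cxcr3 (3.93, 2.05, 8 and 5.59) and Cxcr6 (3.72, 2.8, 10.1 and 7.25) were higher there, all named after their values were seen. The 12 B cell markers summed to 431, 424, 544 and 505 CPM, nearly all of it Ighm. The 10 CD8 T and NK cell markers summed to 70.8, 69.9, 95.1 and 76.3 CPM, highest in replicate 3. The 14 myeloid and dendritic markers summed to 36.7, 35.4, 38.5 and 43.9 CPM, highest in replicate 4. The 7 erythroid markers summed to 4, 1.22, 3.6 and 2.33 CPM. The part of these markers in the Ctla4 and Tigit values was not tested.

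**Figure D2:**
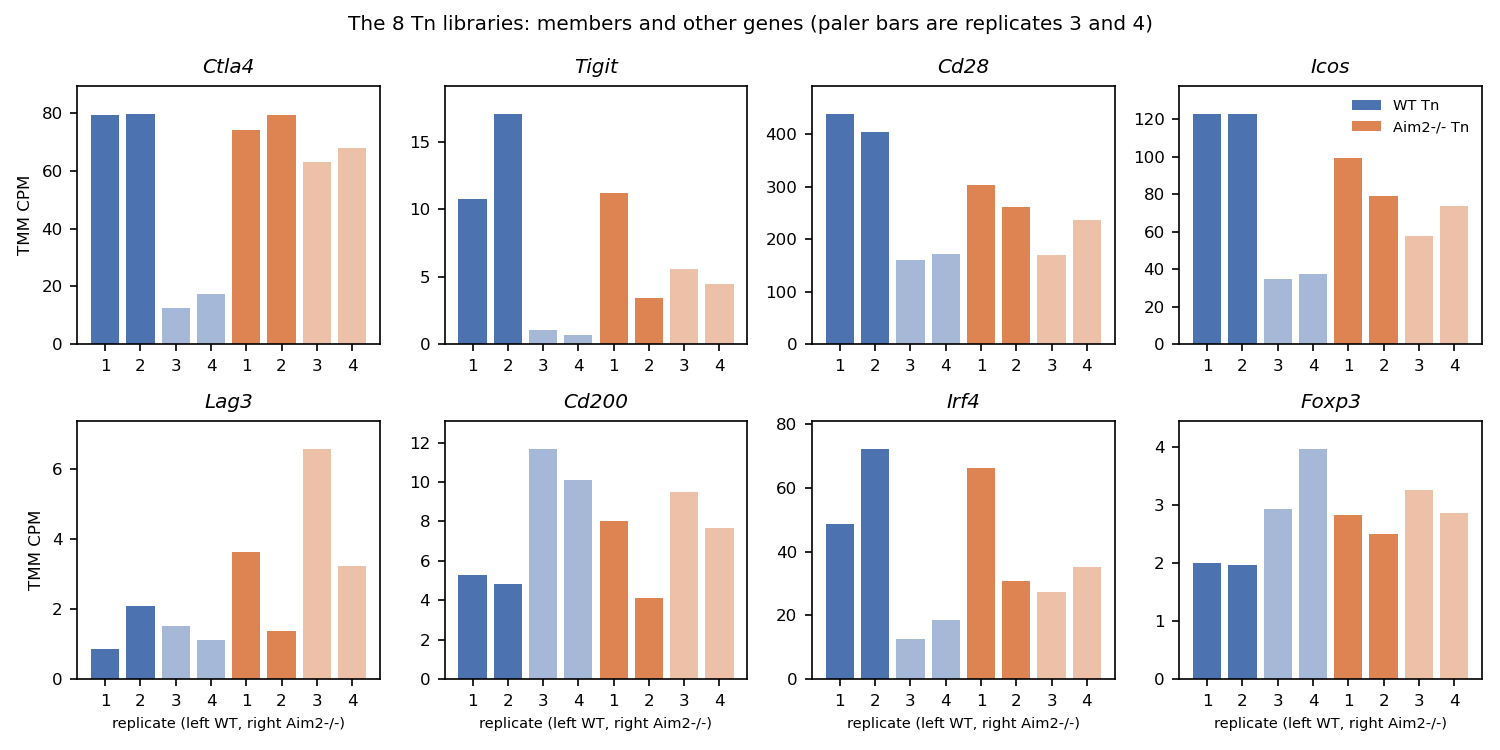
CPM in the 8 Tn libraries, with WT Tn replicates 1 to 4 on the left and Aim2-/- Tn replicates 1 to 4 on the right of each panel, and replicates 3 and 4 in paler bars. Ctla4, Tigit, Cd28, Icos and Irf4 are low in WT Tn replicates 3 and 4, Cd200 is high there, and Foxp3 stays below 4 CPM throughout.

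Whether Aim2 loss altered the receptors in naïve cells was asked of all 8 Tn libraries. None of the 6 members with enough counts to be tested (at least 10 in 4 libraries) passed the threshold of 0.05 after Benjamini-Hochberg adjustment over 13441 genes in edgeR's quasi-likelihood test, of which 0.231% were called. DESeq2 and limma-voom also called 0 of the 6. At an unadjusted p under 0.05 there was 1 of 6 (Lag3), where 10.3% of all genes were. The median log2 fold change of the 6 was 0.10, against 0.014 over all genes tested.

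Lag3 showed the largest fitted difference. LAG-3 is a CD4-like receptor that binds MHC class II. Its level was 0.861, 2.09, 1.51 and 1.11 CPM in WT Tn and 3.62, 1.36, 6.59 and 3.22 CPM in Aim2-/- Tn. Of the Aim2-/- libraries, 3 lay above all WT libraries and replicate 2 lay inside their range. The log2 fold change of Aim2-/- over WT was 1.43 (SE 0.45, 95% interval 0.55 to 2.31, adjusted p = 0.39 by edgeR), from 25 to 180 reads per library. In DESeq2 it was 1.41 with an adjusted p of 0.086. Aim2-/- Tn replicate 3, where Lag3 was highest, also had the highest sums of CD8 T and NK cell markers (103 CPM, against 58.4 to 90.4 in the other Aim2-/- Tn libraries), of Treg markers (273, against 173 to 223), of memory and follicular helper markers (359, against 287 to 322), of B cell markers (564, against 469 to 503) and of myeloid and dendritic markers (49.9, against 33.5 to 39.4). Its sum of CD4 T cell markers was the highest as well (7510 CPM, against 6330 to 6750). Single genes gave much of some sums in that library, with Ighm at 558 CPM, Izumo1r, a Treg marker, at 150 and Cst3, a myeloid marker, at 30.6. The sum of 7 erythroid markers also parted the genotypes in Tn, at 1.22 to 4 CPM in WT and 5.33 to 7.82 CPM in Aim2-/-, though edgeR called 0 of the 4 tested. The part of these genes in the Lag3 value was not tested. Without Aim2-/- Tn replicate 3 the fold change of Lag3 was the lowest of the 8 fits that left out 1 library each, and none of them called it (0.995 to 1.70, adjusted p from 0.28 to 0.75).

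For Ctla4 the fold change was 0.61 (SE 0.60, 95% interval -0.58 to 1.79, adjusted p = 0.75 by edgeR), and for Tigit it was -0.25 (SE 0.96, -2.13 to 1.64, adjusted p = 0.94). These wide intervals carry the split of the WT Tn libraries. Pdcd1 was at 1.66 to 3.14 CPM in WT Tn and 1.11 to 4.39 in Aim2-/- Tn (0.07, 95% interval -0.70 to 0.85). Cd200 was at 4.81 to 11.7 and 4.11 to 9.48 CPM (-0.11, -0.77 to 0.56). Btla had the narrowest interval (0.12, -0.13 to 0.38), from 75.1 to 107 CPM in WT Tn and 79.6 to 110 CPM in Aim2-/- Tn.

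The genotype values in Tn depended on the libraries used. The sets below were formed with the split of Ctla4 and Tigit already known. Their values for Ctla4 and Tigit therefore restate that split, and all values are given as a description with no test. From replicates 3 and 4 alone, the log2 difference of Aim2-/- from WT was 2.12 for Ctla4, 2.50 for Tigit and 1.92 for Lag3. From replicates 1 and 2 alone it was -0.03, -0.92 and 0.78. For Ctla4 and Tigit the sign turned with the replicates used, while for Lag3 it was positive in both. With WT Tn replicates 1 and 2 against all Aim2-/- Tn libraries, Ctla4 was at -0.15, Tigit at -1.16 and Lag3 at 1.35.

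**Figure D3:**
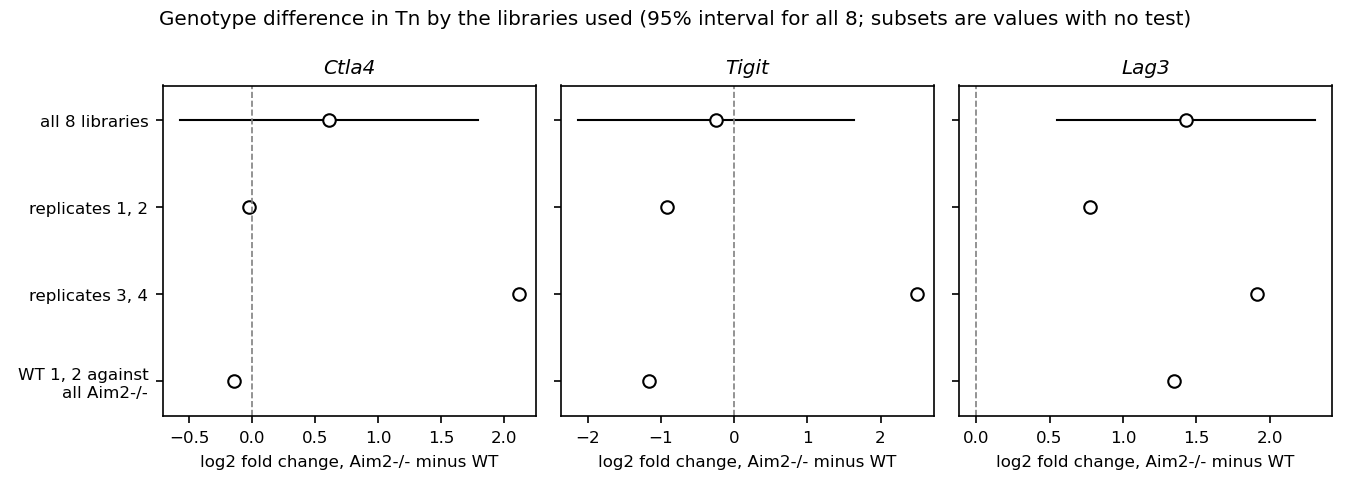
Log2 fold change of Aim2-/- Tn over WT Tn for Ctla4, Tigit and Lag3, by the libraries used (all 8 with the 95% interval, then replicates 1 and 2, replicates 3 and 4, and WT Tn replicates 1 and 2 against all Aim2-/- Tn as values with no test). The subsets were formed after the split of the WT Tn libraries was known, and replicates 3 and 4 gave 2.12, 2.50 and 1.92.

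In Treg cells the same question was asked of 8 libraries. None of the 6 tested members was called by edgeR over 13221 genes, of which 0.219% were, or by DESeq2 or limma-voom, and 1 of 6 (Lag3) had an unadjusted p under 0.05, where 2.30% of all genes did. Ctla4 was at 78.2, 84.3, 73.9 and 58.2 CPM in WT Treg and at 82.8, 73.2, 67.1 and 56 CPM in Aim2-/- Treg, and replicate 4 was lowest in both. The log2 fold change was -0.09 (95% interval -0.37 to 0.19). Tigit (0.12, -0.14 to 0.39), Pdcd1 (-0.03, -0.30 to 0.24), Cd200 (0.11, -0.37 to 0.58) and Btla (-0.05, -0.26 to 0.17) had intervals that left room for at most 0.58 in either direction.

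Lag3 in Treg cells was at 19.1, 19.7, 17 and 33.8 CPM in WT and at 26.7, 28.1, 35.8 and 37.5 CPM in Aim2-/-. WT replicate 4 lay inside the Aim2-/- range and the other WT libraries below it. The fold change was 0.51 (SE 0.22, 95% interval 0.08 to 0.93, adjusted p = 1 by edgeR). Tbx21, the T helper 1 factor that was on the list of regulators, was at 14.9, 49.8, 18.9 and 129 CPM in WT Treg and at 19.5, 76.3, 136 and 140 CPM in Aim2-/- Treg, and Foxp3 at 568, 574, 500 and 283 CPM and at 567, 530, 334 and 293 CPM. The libraries with the most Lag3, which were WT replicate 4 and Aim2-/- replicates 3 and 4, thus had the most Tbx21 and the least Foxp3. They also had the highest sums of CD8 T and NK cell markers (54.3, 50.1 and 43.7 CPM, against 17.7 to 34.9 in the other Treg libraries). Nkg7 alone gave 42.4, 39 and 35.6 CPM of these sums. Cd8b1, on the same list, was lower in these libraries (1.95, 2.84 and 2.38 CPM) than in the others (3.1 to 3.93). This reading was made after the values were seen, and the part of these genes in the Lag3 value was not tested.

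Treg culture changed 4 of the 6 tested members in each genotype, 3 upwards and 1 downwards, and in both genotypes the libraries of these 4 did not overlap between Tn and Treg. In WT cells 76.9% of 13675 genes were called by edgeR (37.7% higher and 39.2% lower in Treg) and 72.9% did not overlap, so that 4 of 6 (66.7%) is near the background. In Aim2-/- cells 79.3% of 13713 genes were called (39.1% higher and 40.2% lower) and 74.7% did not overlap. The sizes for each member follow. Both comparisons use the genotype's own Tn libraries. Tn and Treg libraries differ in CD3 and CD28 stimulation, TGF-beta, IL-2 and time in culture at once, so their parts cannot be told apart.

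Pdcd1 rose most. It was at 1.79, 1.66, 3.14 and 2.63 CPM in WT Tn and at 119, 105, 126 and 88.5 CPM in WT Treg. The log2 fold change was 5.52 (SE 0.22, adjusted p = 1.9e-08 by edgeR), which is 46-fold. In Aim2-/- cells it went from 2.39, 1.11, 4.39 and 1.7 CPM to 129, 109, 87.3 and 108 CPM, by 5.46 (SE 0.34, adjusted p = 1.1e-07). PD-1 appears on T cells after antigen receptor signalling, and its gene went from a few CPM to the most abundant of the 7 per length.

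Lag3 rose 15.6-fold in WT cells (3.96, SE 0.32, adjusted p = 2e-06 by edgeR) and 8.4-fold in Aim2-/- cells (3.07, SE 0.36, adjusted p = 1.6e-05). Cd200 was at 53.4, 43.4, 63.2 and 78.6 CPM in WT Treg, against 4.81 to 11.7 CPM in WT Tn, a rise of 7.19-fold (2.85, SE 0.32, adjusted p = 2.7e-05). In Aim2-/- Treg it was at 55.7, 45.2, 63.6 and 94.7 CPM, against 4.11 to 9.48 CPM in Aim2-/- Tn, a rise of 8.54-fold (3.10, SE 0.28, adjusted p = 2.4e-06). Every Treg library lay above every Tn library for these genes. Replicate 4 had the most Cd200 in both Treg groups.

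Btla was the only member called lower in these comparisons. It was at 107, 92.7, 75.1 and 85.7 CPM in WT Tn and at 49.6, 44.2, 54.5 and 51.1 CPM in WT Treg, a decrease of 1.88-fold (-0.91, SE 0.11, adjusted p = 4.6e-05 by edgeR). In Aim2-/- cells it went from 91.4, 106, 79.6 and 110 CPM to 52.2, 41.5, 43.7 and 57.3 CPM, a decrease of 2.07-fold (-1.05, SE 0.13, adjusted p = 1.5e-05). Its ligand gene Tnfrsf14 was at 15.2 to 25.5 CPM in WT Tn and 15.6 to 20 CPM in WT Treg, with overlapping libraries.

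**Figure D4:**
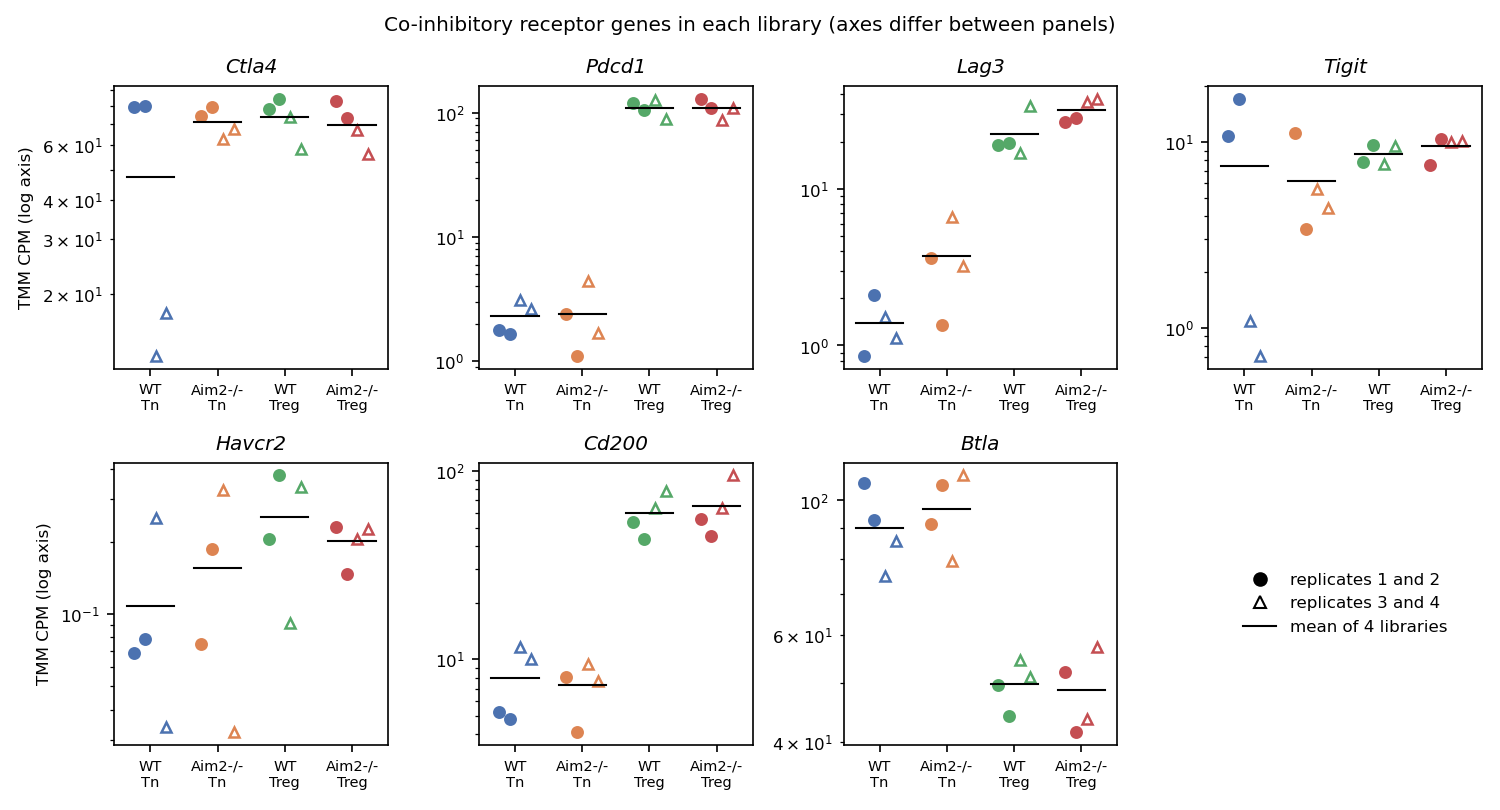
CPM (log axes that differ between panels) of the 7 genes in every library of the 4 groups, with filled circles for replicates 1 and 2, open triangles for replicates 3 and 4 and a line at the mean. Pdcd1, Lag3 and Cd200 are higher and Btla is lower in all Treg libraries than in all Tn libraries of the same genotype, and the low triangles of Ctla4 and Tigit belong to WT Tn.

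Ctla4 and Tigit were not called in either genotype, and in WT cells their values rest on which Tn libraries are used. Over all libraries Ctla4 was 1.5-fold higher in WT Treg (0.59, SE 0.56, adjusted p = 0.36 by edgeR), and in Aim2-/- cells, whose Tn libraries were alike, it was at -0.08 (SE 0.12, 95% interval -0.32 to 0.16, adjusted p = 0.56). Within replicates 1 and 2 the WT value was 0.03 and within replicates 3 and 4 it was 2.06, which restates the split and was given no test. Tigit was at 7.8, 9.62, 7.64 and 9.55 CPM in WT Treg and at 7.55, 10.4, 9.98 and 10.1 CPM in Aim2-/- Treg. Its fold change in WT was 0.17 (SE 0.82, adjusted p = 0.86 by edgeR) over all libraries, -0.67 within replicates 1 and 2 and 3.20 within replicates 3 and 4, the last 2 again as values with no test. In Aim2-/- cells it was 0.58 (SE 0.32, adjusted p = 0.12), and 3 of 20 alternatives called it. It was 0.97 without Aim2-/- Tn replicate 1, the highest of its group (adjusted p = 0.0013 by edgeR, where 10084 of 13036 genes were called). In limma-voom it was 0.74 (adjusted p = 0.033), where 10921 of 13713 genes were called. Within replicates 3 and 4 it was 0.92, where 75.7% of all genes were called. That set was formed with the split known and also leaves out replicate 1, so its call is not separate support.

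**Figure D5:**
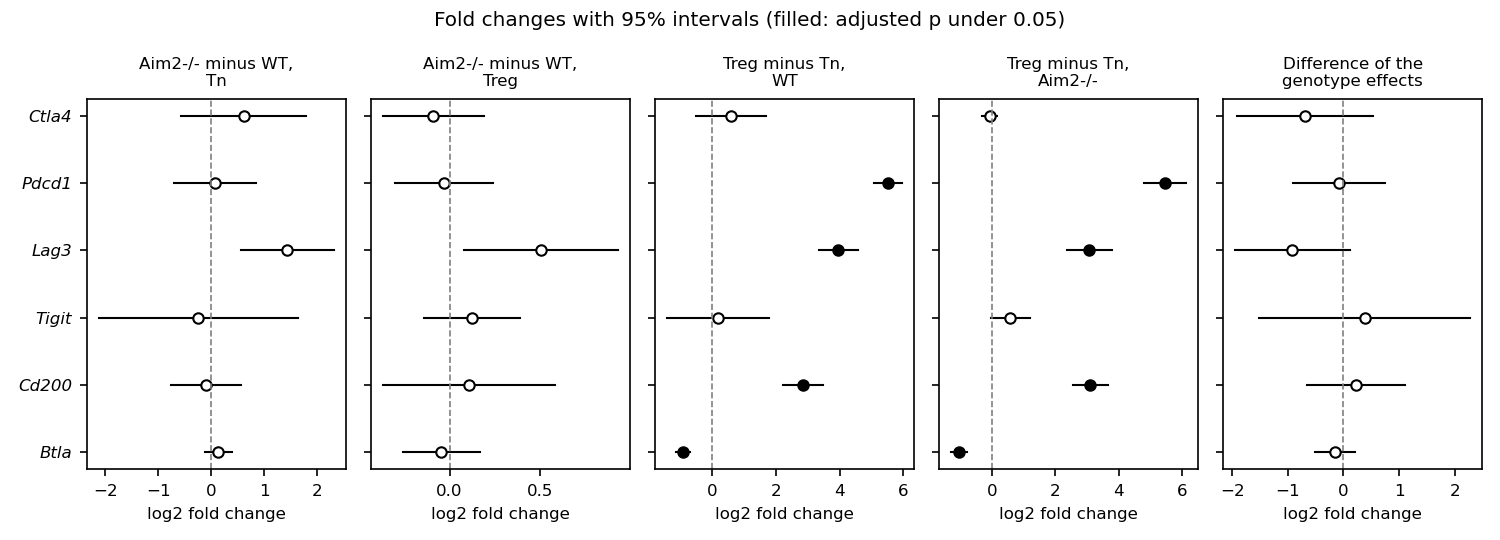
Log2 fold changes with 95% intervals of the 6 tested members for genotype in Tn and in Treg, for culture in WT and in Aim2-/-, and for the difference of the genotype effects (Treg minus Tn), on axes that differ between panels. Filled points, which passed the adjusted threshold of 0.05, occur only in the culture comparisons, for Pdcd1, Lag3, Cd200 and Btla.

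The difference of the genotype effects between Treg and Tn was tested as an interaction over all 16 libraries, and 0 of 6 members were called by edgeR, with 0 at an unadjusted p under 0.05, where 0.0205% and 3.49% of 14669 genes were. DESeq2 and limma-voom also called 0. The term was -0.92 for Lag3 (SE 0.53, 95% interval -1.95 to 0.11), -0.69 for Ctla4 (SE 0.62, -1.91 to 0.53), 0.39 for Tigit (SE 0.97, -1.51 to 2.28), 0.23 for Cd200, -0.16 for Btla and -0.09 for Pdcd1.

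Havcr2, the gene of TIM-3, a receptor of terminally activated T cells, was at the edge of detection. It had 2, 2, 6 and 1 reads in WT Tn and 2, 6, 9 and 1 in Aim2-/- Tn, and 6, 13, 3 and 9 in WT Treg and 6, 4, 6 and 6 in Aim2-/- Treg. With no more than 13 reads it did not enter any test, and a difference was not detectable at this depth.

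Another row of the tables also carries the symbol Ctla4 and has no entry in GENCODE M21. It held 0 to 48 counts, and RSEM divided reads between the rows, since 13 of 16 libraries had counts that were not whole (beyond 1e-06) in each. Adding its counts to those of Ctla4 left the genotype difference in Tn at 0.61 (adjusted p = 0.75 by edgeR).

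Members varied together to different degrees. After each group's mean was taken away from log2 CPM, the correlation over the 16 libraries was 0.868 between Ctla4 and Tigit, 0.605 between Cd200 and Pdcd1, 0.53 between Cd200 and Lag3 and -0.774 between Cd200 and Ctla4. These points share their libraries, and the split of WT Tn weighs on those of Ctla4 and Tigit. Among 14669 genes, the closest by the same measure to Ctla4 were Pnrc1 (0.978), Map1lc3a (0.968) and Gpatch3 (0.968), and to Tigit they were Ube2e3 (0.986), Morf4l1 (0.985) and Sqstm1 (0.981). To Pdcd1 they were Iqgap3 (0.948), Ucp2 (0.928) and Sh3bgrl3 (0.927), to Lag3 Mrpl52 (0.924), Actg1 (0.904) and Ndufb9 (0.893), to Cd200 Nudcd1 (0.959), Coa4 (0.941) and Cops7b (0.929), and to Btla AC154636.3 (0.906), Ranbp9 (0.903) and Zfp715 (0.893).

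No gene of the wider pathway passed the test for genotype. Of 12 other inhibitory receptors tested in Tn, 10 ligands and counter-receptors, 6 activating partners of the same axes (among them Tnfsf14, which encodes the HVEM ligand LIGHT), 19 signalling partners and 28 transcription factors known to act on these genes, edgeR called 0 in each list, with 3, 0, 0, 3 and 1 at an unadjusted p under 0.05, where 0.231% and 10.3% of all genes were. Cd160 is on the lists of inhibitory and of activating genes. In Treg it called 0 of 11, 12, 6, 19 and 28, with 0, 0, 1, 0 and 0 at that p, where 0.219% and 2.30% of all genes were. The interaction called 0 of 12, 12, 6, 19 and 28, with 1, 0, 0, 0 and 0 at that p, where 0.0205% and 3.49% of all genes were. limma-voom called 0 over the 5 lists in each of these comparisons, and DESeq2 called 1 gene in Tn and 0 elsewhere. That gene was Trat1, an adaptor of the T cell receptor complex, at 41.5 to 47.3 CPM in WT Tn and 32.7 to 36.3 CPM in Aim2-/- Tn with no overlap, for which edgeR gave -0.36 (SE 0.08, adjusted p = 0.22). Of the marker lists, DESeq2 alone called 1 gene for genotype, which was Klf2, a transcription factor of resting T cells, at 275, 282, 251 and 293 CPM in WT Tn and 346, 383, 404 and 346 CPM in Aim2-/- Tn (0.45, SE 0.09, adjusted p = 0.13 by edgeR).

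In the WT culture comparison, 37.7% of all genes were called higher and 39.2% lower (median of the log2 values -0.052), and the lists below likewise held genes of both directions. Of 11 other inhibitory receptors, 2 rose and 5 fell (median -0.245). Cd101 rose by 3.18 (SE 0.32) and Lair1, a collagen receptor, by 1.32 (SE 0.18), and Pecam1 fell by 2.82 (SE 0.21) and Vsir, which encodes VISTA, by 2.51 (SE 0.22). Of 11 ligands, 5 rose and 3 fell (median 0.12). The PD-1 ligand gene Pdcd1lg2 rose with its receptor, from 0.448, 0.749, 0.838 and 0.91 CPM to 29.3, 33.3, 26.4 and 25.2 CPM (5.22, SE 0.21, adjusted p = 1.7e-08). Cd80, a ligand of CTLA-4, was at or under the floor in Tn and at 1.55 to 3.5 CPM in Treg. The receptor gene of CD200, Cd200r1, moved against Cd200, from 6.79, 6.46, 14.4 and 13.3 CPM to 0.342, 0.232, 0.365 and 0.526 CPM (-4.86, SE 0.38, adjusted p = 1.7e-06), and Pvr, the ligand of TIGIT, fell by 1.26 (SE 0.23).

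Of the 6 activating partners, 1 rose (Tnfsf14) and 3 fell (Cd28, Cd4 and Cd160; median -0.841). Cd28 fell by 1.74 (SE 0.34, adjusted p = 0.001 by edgeR) and Cd4 by 1.24 (SE 0.08, adjusted p = 4e-07), both with no overlap between Tn and Treg libraries. Of 19 signalling partners, 6 rose and 6 fell (median -0.021): Ptpn11, which encodes the phosphatase SHP-2, rose by 0.73 (SE 0.06) and Ap2m1, of the adaptor that takes CTLA-4 into the cell, by 0.66 (SE 0.06), while Trat1 fell by 3.71 (SE 0.24) and Dok2 by 1.31 (SE 0.10). Of 28 transcription factors, 8 rose and 14 fell (median -0.563). Foxp3 rose by 7.41 (SE 0.35) and Irf4 by 4.44 (SE 0.54), and Fos fell by 8.34 (SE 0.23) and Jun by 3.65 (SE 0.24). In Aim2-/- cells the counts were 2 up and 6 down of 11 receptors, 5 and 3 of 11 ligands, 1 and 5 of 6 activating partners, 9 and 6 of 19 partners and 9 and 15 of 28 factors, where 79.3% of all genes were called.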

How the data were processed

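RNA of 16 libraries was analysed, 4 in each of WT Tn, Aim2-/- Tn, WT Treg and Aim2-/- Treg, grouped by their deposited titles. Libraries were stranded mRNA preparations read from a single end. The authors used STAR (against GRCm38) and then RSEM (GENCODE m15 genes), whose versions and strand setting are not given in the sources used here. The deposited values are the RSEM expected counts, 1 table of 53090 rows per library, with no scaling or filter. Reads shared between genes are split by estimate, which can move counts between overlapping genes.

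Expected counts were rounded. A gene was tested where 4 or more libraries of the comparison held 10 or more counts. Fits used edgeR 4.0.16 with TMM factors and its robust quasi-likelihood test (two-sided) on the 8 libraries compared, or on all 16 for the interaction, in R 4.3.3, with Benjamini-Hochberg adjustment over all genes tested and a threshold of 0.05. SE is the absolute log2 fold change over the square root of F, and 95% intervals are 1.96 SE on either side. RPKM divides CPM by the union of exons in GENCODE M21, which held 98.7% of the rows. Deviations used log2 CPM with a prior count of 2. The tests were tested on simulated data. Alternatives used DESeq2 1.42.0, limma-voom (limma 3.58.1, the tool of the study), other scalings, filters and library sets. Fits on replicates 1 and 2 or 3 and 4 were set with the split of Ctla4 known.

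All 7 members are given in every comparison. Of the other lists, genes are named if edgeR called them for genotype or interaction (none was), if DESeq2 did (Klf2 and Trat1, added after the values were seen), or if among the 2 largest rises and 2 largest falls per list in the WT culture comparison among genes called without overlap. The 3 genes most like each member were named by correlation. Other genes were named after their values were seen, which is said there. The members, lists and tests were chosen with earlier results of these data known.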

Additional observations from a re-analysis of the deposited data

Results flagged for a closer look

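Over the 28 sets of 4 libraries formed by the 7 genes and 4 groups, 2 libraries stood apart from the rest of their group by Dixon's ratio (the gap to the nearest library over the whole range, above its 95% critical value), and chance marks about 1 in 20 groups. Lag3 in WT Treg replicate 4 had a ratio of 0.842, at 33.8 CPM beside 17 to 19.7 CPM in the other 3 libraries. Without this library the genotype difference of Lag3 in Treg was 0.77 (adjusted p = 0.14 by edgeR), against 0.51 with it. Tigit in Aim2-/- Treg replicate 1 had a ratio of 0.852, at 7.55 CPM beside 9.98 to 10.4 CPM. The split of Ctla4 in WT Tn, with 2 libraries high and 2 low, does not meet this measure (ratio 0.07), which looks for a single library.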

How the results depend on the processing

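Calls for the culture comparisons (4 members each) and for genotype (0) were unchanged in DESeq2, with RLE size factors, with library totals, without a filter, with at least 10 counts in every library, with all 16 libraries in one fit and with both Ctla4 rows summed. limma-voom called 5 members for culture in Aim2-/-. Replicates 3 and 4 alone called 3 members for genotype in Tn, where 516 of 12245 genes were called. For the interaction they called 1, where 3 of 13623 genes were. Replicates 1 and 2 alone called 0 members for both, where 15 of 12519 and 2 of 13870 genes were. These sets were formed with the split of Ctla4 known, so the calls of Ctla4 and Tigit restate it. The other member called for genotype was Lag3, whose WT Tn libraries did not part this way (0.05 on the log2 scale). Its Aim2-/- Tn libraries did, with replicates 3 and 4 higher (-1.03, with 2.63% of genes at least as large). The Lag3 call therefore also depends on the libraries chosen. No count from these sets is taken as a test. Leaving out 1 library at a time gave 0 calls for genotype and interaction, 4 for culture in WT and 4 to 5 in Aim2-/-, and 22 to 23 mean levels of at least 1 RPKM. The median of all genes shifted by at most 0.056 on the log2 scale.

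Some log2 fold changes that were not called changed sign. For genotype in Tn, limma-voom gave Pdcd1 -0.079 and Tigit 0.67, a term for replicates 1 and 2 against 3 and 4 gave Tigit 0.48, replicates 1 and 2 alone gave Ctla4 -0.027 and Cd200 0.28, replicates 3 and 4 alone gave Tigit 2.50, and WT Tn replicates 1 and 2 against all Aim2-/- Tn, an alternative chosen after the data were seen, gave Ctla4 -0.15, Cd200 0.55 and Btla -0.03. For genotype in Treg, replicates 1 and 2 gave Pdcd1 0.075. For culture in WT, replicates 1 and 2 gave Tigit -0.67, and WT Tn replicates 1 and 2 gave Ctla4 -0.18 and Tigit -0.75. For the interaction, limma-voom gave Pdcd1 0.06 and Tigit -0.53, replicates 1 and 2 gave Pdcd1 0.081 and Cd200 -0.20, replicates 3 and 4 gave Tigit -2.27, and WT Tn replicates 1 and 2 gave Ctla4 0.033 and Cd200 -0.47. The cause was not tested. Leaving out 1 library changed a sign within these ranges. In Tn they were -0.39 to 0.30 for Pdcd1, -0.70 to 0.56 for Tigit and -0.29 to 0.13 for Cd200. In Treg they were -0.129 to 0.059 for Pdcd1, -0.12 to 0.27 for Cd200, -0.127 to 0.026 for Btla and -0.19 to 0.007 for Ctla4. For culture they were -0.21 to 0.97 for Tigit in WT and -0.182 to 0.059 for Ctla4 in Aim2-/-. For the interaction they were -0.32 to 0.38 for Pdcd1 and -0.44 to 0.81 for Tigit.

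A replicate block in the fit left the counts of calls as they were (0, 0, 4, 4 and 0), and Pdcd1 and Tigit in Tn were at -0.033 and 0.51. In Treg the block raised the genes with an unadjusted p under 0.05 from 304 to 1113, and Lag3 was at 0.54 (adjusted p = 0.54 by edgeR). The numbers were not taken to pair libraries, since not every pair correlated above 0.1 and no label gives a shared source: the correlation of their deviations was 0.224, 0.058, 0.346 and 0.029 between genotypes in Tn and 0.488, 0.299, -0.02 and 0.421 in Treg, and only 1 and 2 of 4 libraries correlated best with their own number.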
